A study of Mus musculus with 6 samples.

Results

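The sodium-potassium pump of epididymal white adipose tissue (eWAT), the fat pad beside the epididymis of male mice, is described here through 7 of its subunit genes: the catalytic subunit gene Atp1a4, the beta subunit genes Atp1b1, Atp1b2 and Atp1b3, and the FXYD subunit genes Fxyd1, Fxyd5 and Fxyd6. They are 7 of 54356 annotated genes summed from the transcript tables. The list was chosen by the measured counts of these same cold and ctrl libraries, which were in view when it was drawn up. Every cold against ctrl difference of the 7 genes is therefore a description, and no p-value is printed for them. How many of the 7 pass a threshold is given only beside the share of all genes. Such counts test nothing, since the same values chose the list. Polyadenylated RNA was sequenced from 6 wild type C57BL/6N males aged 20 weeks, 1 library per mouse. The cold group is mice 7, 12 and 16 (4 °C for 24 h, singly housed), and the ctrl group is mice 5, 6 and 10. The treatment text is the same for all 6 animals, general housing was at 22 to 24 °C, and the sources used here do not give the housing of the ctrl mice during those hours. Libraries are named by group and mouse number, and separate mice are the replicates.

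The pump is a membrane ATPase that carries sodium out of the cell and potassium in, and it holds the gradients on which many transporters and the resting potential depend. A catalytic alpha subunit binds ATP and the ions. The glycosylated beta subunit brings it to the plasma membrane, and a small single-span FXYD protein tunes its ion affinity. In epithelia the pump sits in the basolateral membrane and drives salt and water across the cell layer, with Atp1b1 as the usual beta subunit. In fat cells the pump is stimulated by insulin.

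Depth was 22903050 to 28608052 estimated counts in the cold libraries and 19735167 to 24176464 in the ctrl libraries. The 12 adipocyte marker genes checked summed to 39080 to 41700 CPM (counts scaled to the TMM-adjusted library total) in cold. In ctrl they summed to 37320 to 42200 CPM, so all 6 libraries held high levels of fat cell genes. By edgeR at an adjusted p under 0.05, Lep rose and Cfd fell, and each call was lost in 5 of 11 other settings. DESeq2 called 3 of the 12 higher and 1 lower in cold, where it called 7.51% of all genes in either direction. Some libraries stood apart by genes of the neighbouring male tract. Cold 7 held 143 CPM of 11 epididymis epithelium genes, mostly the secreted sperm-coating protein gene Crisp1, against 0.626 to 2.46 CPM in the other libraries. Ctrl 10 held 163 CPM of 7 seminal vesicle genes, against 0.0447 to 1.12 CPM elsewhere. Of the 12 epididymis genes listed, 3 (Lcn9, Lcn10 and Defb41) were at 0 in all libraries and 1 was not annotated under its symbol. Epithelial markers differed between the groups. The 17 genes summed to 220, 384 and 356 CPM in cold 7, cold 12 and cold 16, against 102, 45.9 and 73.9 CPM in ctrl 5, ctrl 6 and ctrl 10. Of the 16 tested, 8 rose and none fell by edgeR's quasi-likelihood test at an adjusted p under 0.05. Of all 17852 genes 2.32% rose and 0.566% fell. The median log2 fold change was 2.73 for the epithelial genes and -0.01 for all genes. The marker lists were chosen with earlier results of these data known, and this one holds Epcam, so its count is a description. Left-out libraries moved the count of epithelial genes called to 10 without cold 7, 12 without ctrl 5 and 14 without both. Of all genes, 5.91%, 3.75% and 6.78% were called in either direction under these settings. In the other cases the epithelial count was as low as 0 of the 16. Motile cilium genes summed to 64.6, 200 and 163 CPM in cold and to 31.1, 8.001 and 6.52 CPM in ctrl, with cold 12 highest and ctrl 5 the highest control, and 3 of the 10 tested rose. The cilium count was 4 without cold 7, 10 without ctrl 5 and 7 by DESeq2, and as low as 0 without another library. DESeq2 called 7.51% of all genes.

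Per length, the order of the 7 genes was led by Fxyd1. In TPM, the deposited level that is corrected for transcript length, the cold libraries held Fxyd1 at 284 to 290, Atp1b3 at 107 to 125, Fxyd5 at 77.5 to 137, Atp1b1 at 32.5 to 74.5, Atp1b2 at 12.0 to 16.2, Fxyd6 at 9.32 to 15.5 and Atp1a4 at 0.554 to 1.72 TPM. The neighbours Atp1b3 and Fxyd5 overlapped in that order, as did Atp1b2 and Fxyd6. In the ctrl libraries Fxyd1 stood at 258 to 332, Atp1b3 at 98.0 to 104, Fxyd5 at 75.0 to 104, Atp1b2 at 17.4 to 18.7, Atp1b1 at 6.50 to 16.8, Fxyd6 at 5.66 to 9.91 and Atp1a4 at 0.366 to 0.781 TPM. Here the overlapping neighbours were Atp1b3 with Fxyd5 and Atp1b1 with Fxyd6. Atp1b1 was the one gene to move past a neighbour between the groups, its TPM being above that of Atp1b2 in every cold library and below it in every ctrl library. Without the length correction, by mean CPM, the order in cold began with Atp1b3, Atp1b1 and Fxyd1 and that in ctrl with Atp1b3 and Fxyd1, and Atp1b1 (28.04 CPM) and Atp1b2 (27.87 CPM) were level in ctrl 5.

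**Figure D1:**
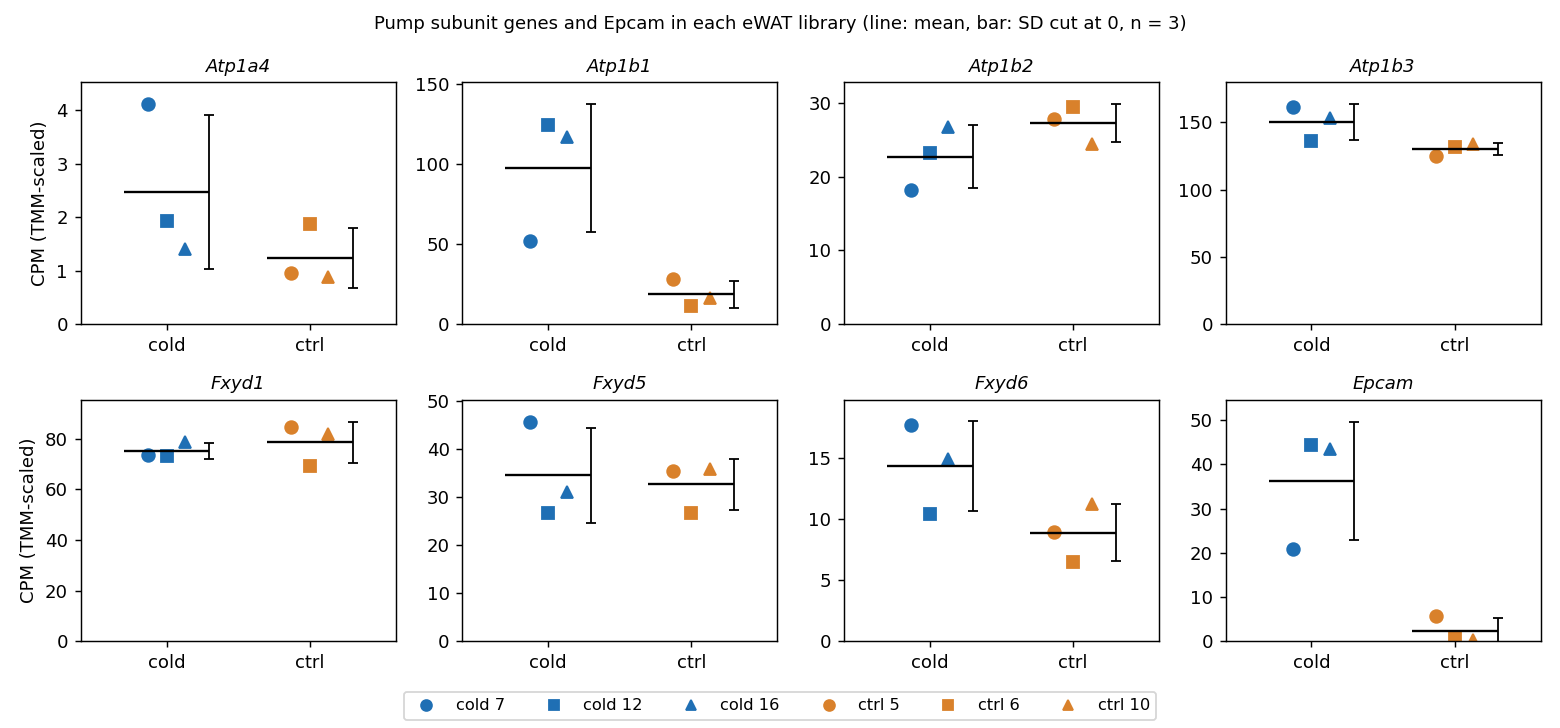
Level of the 7 subunit genes and of the epithelial gene Epcam in each library (vertical axes: CPM, each panel on its own scale from 0), with cold on the left and ctrl on the right of each panel. Points are libraries, lines are group means and bars are SD of 3 libraries. Atp1b1 and Epcam show the same order of the 3 cold libraries and of the groups, while Fxyd1 stays between 69.2 and 84.6 CPM throughout.

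Atp1b1 (ENSMUSG00000026576, chromosome 1, 164437109 to 164458355, GRCm38, minus strand) had the widest difference of the 7 genes. Its level was 51.9, 124 and 117 CPM in cold 7, cold 12 and cold 16, against 28.0, 11.5 and 16.2 CPM in ctrl 5, ctrl 6 and ctrl 10. No cold library came down to a ctrl library, and cold 7 was the lowest of its group while ctrl 5 was the highest of the controls. Means were 97.7 ± 39.8 CPM in cold and 18.6 ± 8.53 CPM in ctrl (SD, n = 3 each), which put the log2 fold change at 2.39 (SE 0.49). In estimated counts this is 1186, 3163 and 3346 in cold and 679, 257 and 315 in ctrl. One transcript, Atp1b1-201 with 6 exons and a coding sequence of 912 bases, took 99.0 to 99.7% of the counts in cold and 99.8 to 100% in ctrl. The last 617 bases of the gene overlap the end of Nme7 on the opposite strand. Nme7 itself had 14.0, 13.3 and 14.6 CPM in cold and 12.3, 14.3 and 14.6 CPM in ctrl, with a log2 fold change of 0.03.

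Epcam, the epithelial adhesion molecule, was set beside Atp1b1 in every library. Epcam had 20.8, 44.5 and 43.6 CPM in cold 7, cold 12 and cold 16, against 5.66, 0.849 and 0.359 CPM in ctrl 5, ctrl 6 and ctrl 10, where ctrl 6 and ctrl 10 rest on 19 and 7 counts. Its log2 fold change was 3.93 (SE 0.89), with an adjusted p of 0.0971 by edgeR's quasi-likelihood test and 0.00657 by DESeq2. Over the alternatives its log2 fold change ran from 3.46 to 6.15 and its adjusted p from 4.644e-05 to 0.247. Epcam was chosen with earlier results of these data known, so these p-values are descriptions and test nothing. Both genes ranked the libraries cold 12, cold 16, cold 7 and ctrl 5 from the top, and differed in the order of ctrl 6 and ctrl 10, where Atp1b1 followed the summed epithelial markers. Atp1b1 stood at 2.49, 2.80 and 2.68 CPM per CPM of Epcam in the 3 cold libraries, a nearly level ratio although Epcam itself varied 2.14-fold among them. In ctrl 5, ctrl 6 and ctrl 10 the ratio was 4.96, 13.5 and 45.0. With ctrl 5 and cold 7 left out, the Atp1b1 log2 fold change was 3.13 (SE 0.16). These are the highest ctrl and the lowest cold library for Atp1b1 itself. Leaving them out was bound to raise its fold change and narrow its spread, so nothing is read from that setting. More or fewer cells of a type and more or less RNA per cell cannot be told apart in such bulk libraries, and the part of epithelial RNA in the Atp1b1 difference was not tested.

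**Figure D2:**
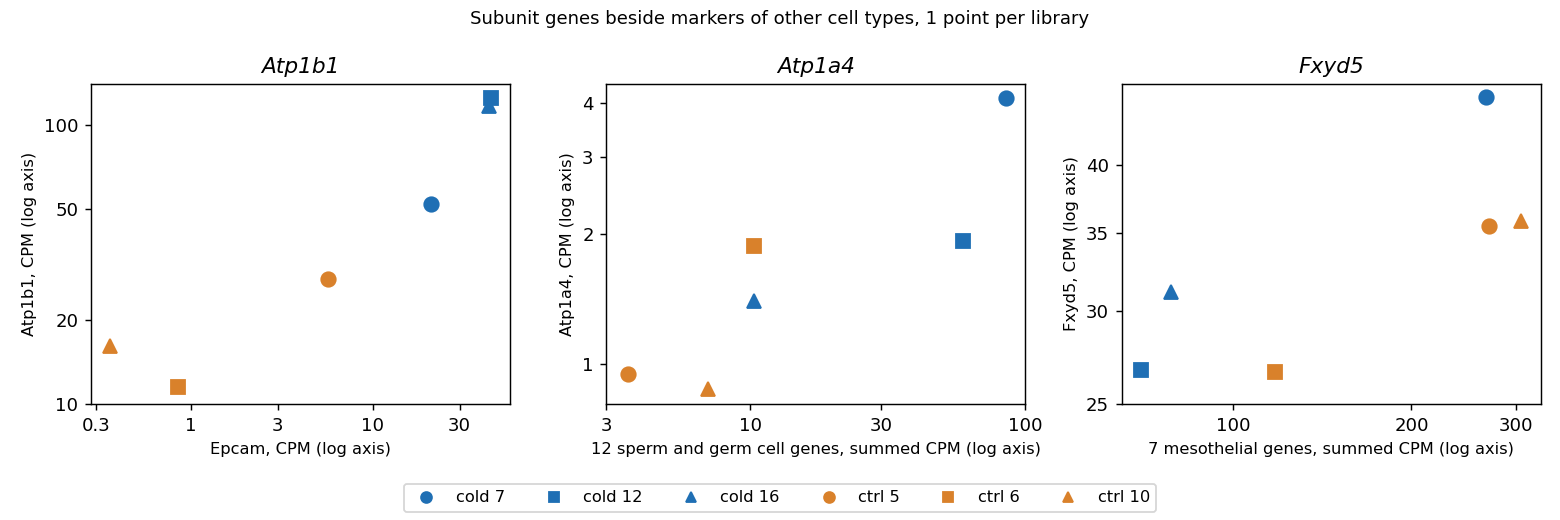
Each panel sets 1 subunit gene (vertical axis, CPM) against markers of another cell type (horizontal axis, CPM), both on log axes, with 1 point per library. Atp1b1 and Epcam rank cold 12, cold 16, cold 7 and ctrl 5 alike. Atp1a4 is highest in cold 7, which also has most sperm and germ cell RNA (85.0 CPM). Fxyd5 is above 35 CPM in the 3 libraries with over 200 CPM of mesothelial genes. Fibroblast and progenitor genes, not plotted, are also highest in those 3 libraries.

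The upstream sequences of Atp1b1, which differed most between the groups, and Atp1b3, the main beta subunit gene of this fat, are shown to set 2 beta subunit promoters side by side. They are the 250 bases before the RefSeq start, on GRCm38.p6, minus strand, at chr1:164458356-164458605 and chr9:96364432-96364681, and capitals mark matches to the motifs searched. RefSeq gives Atp1b3 another start as well, and the window shown is the one at the annotated 5′ end of the gene.
Atp1b1: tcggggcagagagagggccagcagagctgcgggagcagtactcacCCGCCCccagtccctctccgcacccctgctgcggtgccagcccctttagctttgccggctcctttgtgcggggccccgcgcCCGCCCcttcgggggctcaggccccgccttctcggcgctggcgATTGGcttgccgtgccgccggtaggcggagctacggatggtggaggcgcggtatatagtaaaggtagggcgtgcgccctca
Atp1b3: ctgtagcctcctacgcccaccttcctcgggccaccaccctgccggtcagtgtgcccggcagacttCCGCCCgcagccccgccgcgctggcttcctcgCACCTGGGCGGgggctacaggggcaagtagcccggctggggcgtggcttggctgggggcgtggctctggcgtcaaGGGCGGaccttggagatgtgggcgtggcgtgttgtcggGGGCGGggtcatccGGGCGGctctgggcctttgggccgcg
Both strands were searched for the GC box (GGGCGG), the CCAAT box (CCAAT), the TATA box (TATAAA), an E box (CACCTG) and a grainyhead-like motif (AACCNGTT). The Atp1b1 window held 2 GC boxes and 1 CCAAT box. It held no exact TATAAA, and variants of these letters, such as its tatata stretch, were not searched. The Atp1b3 window held 5 GC boxes and 1 E box that shares its last base with a GC box. The window of the other Atp1b3 start, at 76.8% GC, held none of the 5 motifs. Such windows hold a GC box in 32.7%, a CCAAT box in 33.8%, a TATA box in 12.4%, the E box in 17.2% and the grainyhead-like motif in 1.79% of 32851 RefSeq promoters. GC content was 70.4% for Atp1b1 and 73.6% for Atp1b3 as shown, against a median of 52.4%. Promoters were matched for 6 of the 7 genes, and those of Atp1a4, Fxyd1, Fxyd5 and Fxyd6 held no GC box, at 50.4 to 57.2% GC.

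Atp1b3 (ENSMUSG00000032412, chromosome 9, 96332655 to 96364442, minus strand), a broadly expressed beta subunit, had the highest beta subunit TPM in all 6 libraries. Its level was 162, 136 and 153 CPM in cold 7, cold 12 and cold 16, against 125, 132 and 134 CPM in ctrl 5, ctrl 6 and ctrl 10. The groups did not overlap, although cold 12 and ctrl 10 were close, and the log2 fold change was 0.21 (SE 0.08). Its transcript Atp1b3-201 took nearly all of its counts in each library.

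Atp1b2 (ENSMUSG00000041329, chromosome 11, 69599736 to 69605942, minus strand) encodes the beta subunit known in glia as an adhesion molecule. It had 18.2, 23.2 and 26.7 CPM in cold 7, cold 12 and cold 16, against 27.9, 29.5 and 24.5 CPM in ctrl 5, ctrl 6 and ctrl 10. Cold 7 was the lowest library, cold 16 lay above ctrl 10, and the log2 fold change was -0.26 (SE 0.14) with all libraries and -0.13 (SE 0.11) without cold 7. The 10 Schwann cell markers checked summed to 187 to 205 CPM in cold and to 214 to 247 CPM in ctrl, and by edgeR 1 of them, Ncmap, rose while none fell. DESeq2 also called Scn7a, which holds most of that sum, lower in cold (log2 fold change -0.30 and adjusted p = 0.0702 by edgeR, adjusted p = 0.00864 by DESeq2). Transcripts with no coding sequence took 19.5, 14.5 and 17.2% of Atp1b2 counts in cold and 22.2, 18.7 and 28.7% in ctrl, mostly Atp1b2-202, and these shares overlapped between the groups.

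The make-up of the beta subunit pool followed from these levels. Atp1b1 held 19.2, 37.6 and 34.1% of the summed beta subunit TPM in cold 7, cold 12 and cold 16, against 12.6, 5.25 and 7.24% in ctrl 5, ctrl 6 and ctrl 10. Atp1b3 held 73.7, 54.2 and 57.8% in cold and 73.4, 79.9 and 79.5% in ctrl, so in this share cold 7 lay with the controls. Beta subunits other than Atp1b1 summed to 136, 124 and 128 TPM in cold and to 117, 117 and 121 TPM in ctrl, a narrower range than the 6.50 to 74.5 TPM of Atp1b1. The muscle-type gene Atp1b4 was at or under 0.0698 CPM in all libraries.

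**Figure D3:**
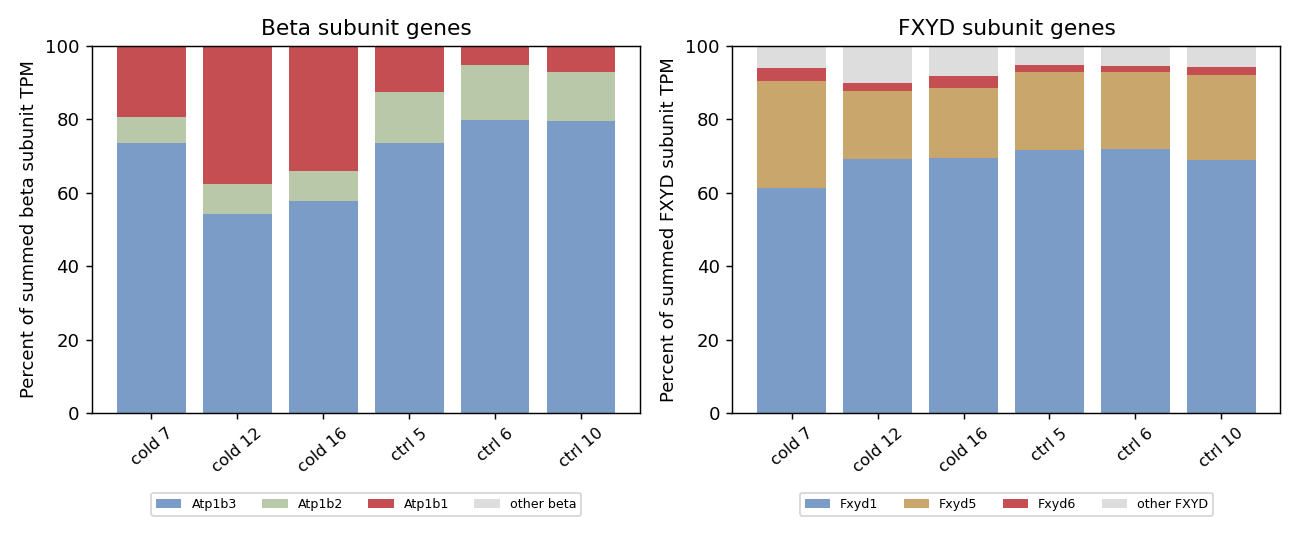
Share of each gene in the summed TPM of the beta subunit genes (left panel) and of the FXYD genes (right panel), in percent, for the 3 cold libraries and then the 3 ctrl libraries. The Atp1b1 share is above 30% in cold 12 and cold 16, 19.2% in cold 7 and at most 12.6% in ctrl, while Fxyd1 is the largest FXYD share in all 6 libraries.

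Atp1a4 (ENSMUSG00000007107, chromosome 1, 172223513 to 172258414, minus strand), the alpha subunit of sperm that is needed for their motility, was the scarcest member. It held only 0.0972 to 0.358% of the summed alpha subunit TPM over the libraries. It had 94, 49 and 40 estimated counts in cold 7, cold 12 and cold 16, against 23, 42 and 17 in ctrl 5, ctrl 6 and ctrl 10, all on the coding transcript Atp1a4-201 of 23 exons. In CPM this was 4.11, 1.93 and 1.40 in cold and 0.950, 1.88 and 0.873 in ctrl, so the groups overlapped and cold 7 stood alone at the top. The log2 fold change was 0.99 (SE 0.48) with all libraries and 0.42 (SE 0.40) without cold 7. The 12 sperm and late germ cell genes summed to 85.0, 59.5 and 10.4 CPM in cold and to 3.59, 10.3 and 7.03 CPM in ctrl. None of the 6 tested passed by edgeR's quasi-likelihood test, 3 had an unadjusted p under 0.05, and 1 passed by DESeq2. Of all genes, 17.6% had such an unadjusted p and 7.51% passed by DESeq2. Cold 7 and cold 12 ranked at the top and ctrl 5 and ctrl 10 at the bottom for both measures. The agreement was loose. Cold 12 and ctrl 6 were nearly level for Atp1a4 (1.93 and 1.88 CPM), with germ cell sums of 59.5 and 10.3 CPM. For Atp1a4, ctrl 6 also lay above cold 16. Of these 12 genes 8 were at 0 counts in ctrl 5, 4 in ctrl 10 and 1 in each of cold 12, cold 16 and ctrl 6. The part of sperm RNA in the Atp1a4 values was not tested.

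Fxyd1 (ENSMUSG00000036570, chromosome 7, 31051678 to 31057199, minus strand) encodes phospholemman, the FXYD protein of heart and muscle that is phosphorylated by protein kinase A. It was level, with 73.6, 73.1 and 78.7 CPM in cold 7, cold 12 and cold 16, against 84.6, 69.2 and 81.8 CPM in ctrl 5, ctrl 6 and ctrl 10. The log2 fold change was -0.06 (SE 0.09), and 0.00 (SE 0.10) without ctrl 5. Of its 17 annotated transcripts 15 had counts, and 1 coding transcript took 68.2 to 71.2% of the counts in cold and 67.1 to 73.5% in ctrl. Skeletal muscle markers were low, summing to 12.9 to 18.8 CPM in cold and to 10.5 to 22.8 CPM in ctrl over 8 genes, none of the 5 tested passing (0 also at an unadjusted p under 0.05 and by DESeq2). The 9 smooth muscle and pericyte genes summed to 1025 to 1163 CPM in cold and to 1253 to 1285 CPM in ctrl, with 1 of them, Notch3, having fallen by edgeR (log2 fold change -0.36, adjusted p = 0.0446). That call was lost in 7 of 11 other settings, such as the offset for length (adjusted p = 0.114), ctrl 5 left out (0.125) or ctrl 5 and cold 7 both left out (0.146). DESeq2 called 2 of the 9 lower in cold, Notch3 and Rgs5, where it called 7.51% of all genes. Rgs5 had a log2 fold change of -0.58, with an adjusted p of 0.0697 by edgeR and 0.00115 by DESeq2.

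Fxyd5 (ENSMUSG00000009687, chromosome 7, 31032722 to 31042481, minus strand) encodes dysadherin, which modulates the pump and weakens cell adhesion. Its level was 45.7, 26.7 and 31.1 CPM in cold 7, cold 12 and cold 16, against 35.5, 26.6 and 35.8 CPM in ctrl 5, ctrl 6 and ctrl 10. The ctrl values lay almost wholly within the cold range, and the log2 fold change of 0.08 (SE 0.22) became -0.18 (SE 0.15) without cold 7 and -0.04 (SE 0.23) without ctrl 6. The 7 mesothelial markers, genes of the sheet that covers the pad, split the libraries the same way, with 268, 69.96 and 78.6 CPM in cold and 270.1, 118 and 307 CPM in ctrl. None of these 7 passed by edgeR or DESeq2 or had an unadjusted p under 0.05. The 7 fibroblast and progenitor genes split the libraries in the same way, with 4144, 2368 and 2316 CPM in cold. In ctrl they had 3132, 2337 and 3293 CPM, so cold 7 led all libraries as it did for Fxyd5. The 7 lymphocyte genes summed to 9.24 to 15.9 CPM in cold and 11.6 to 21.3 CPM in ctrl, and the 8 macrophage genes to 706 to 1237 CPM in cold and 972 to 1100 CPM in ctrl. The part of these cells in the Fxyd5 values was not tested. Transcripts with no coding sequence took 24.8, 22.2 and 28.7% of Fxyd5 counts in cold and 22.8, 20.9 and 23.6% in ctrl, the retained-intron transcript Fxyd5-214 alone 21.5 to 24.1% in cold and 18.7 to 20.1% in ctrl.

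Fxyd6 (ENSMUSG00000066705, chromosome 9, 45370185 to 45396159, plus strand) encodes phosphohippolin, an FXYD protein best known from brain and inner ear. It had 17.6, 10.4 and 14.9 CPM in cold 7, cold 12 and cold 16, against 8.96, 6.48 and 11.2 CPM in ctrl 5, ctrl 6 and ctrl 10. Of the cold libraries, cold 12 alone lay within the ctrl range, and the log2 fold change was 0.69 (SE 0.25), with 0.51 (SE 0.25) without cold 7. The 7 fibroblast and progenitor genes summed to 4144, 2368 and 2316 CPM in cold and to 3132, 2337 and 3293 CPM in ctrl, so cold 7 and ctrl 10 led their groups in both measures. None of these 7 was called by edgeR or DESeq2 or had an unadjusted p under 0.05, and their part in the Fxyd6 values was not tested.

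The 2 coding transcripts of Fxyd6 are shown because nearly all its counts are divided between them and they differ by 3 coding bases at the start of exon 3. The sequences run from the last 30 bases of exon 2 (chr9:45390018-45390047) into exon 3, from the GENCODE M21 transcripts, and capitals mark the 3 extra bases (chr9:45390634-45390636).
Fxyd6-201: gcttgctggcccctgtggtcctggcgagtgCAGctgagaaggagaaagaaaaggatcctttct
Fxyd6-203: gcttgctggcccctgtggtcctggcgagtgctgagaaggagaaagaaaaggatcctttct
Fxyd6-201 took 29.04, 8.45 and 61.6% of Fxyd6 counts in cold 7, cold 12 and cold 16, against 0, 87.7 and 72.4% in ctrl 5, ctrl 6 and ctrl 10. Fxyd6-203 took nearly all the rest, from 38.4 to 91.6% in cold and from 12.3 to 98.6% in ctrl. The shares differed widely within each group, over nearly the whole scale in ctrl, and overlapped between the groups. Apart from this junction the transcripts differ only in 4 bases at the 3′ end, so few reads of 50 nt can tell them apart, and the gene sum does not depend on the division.

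**Figure D4:**
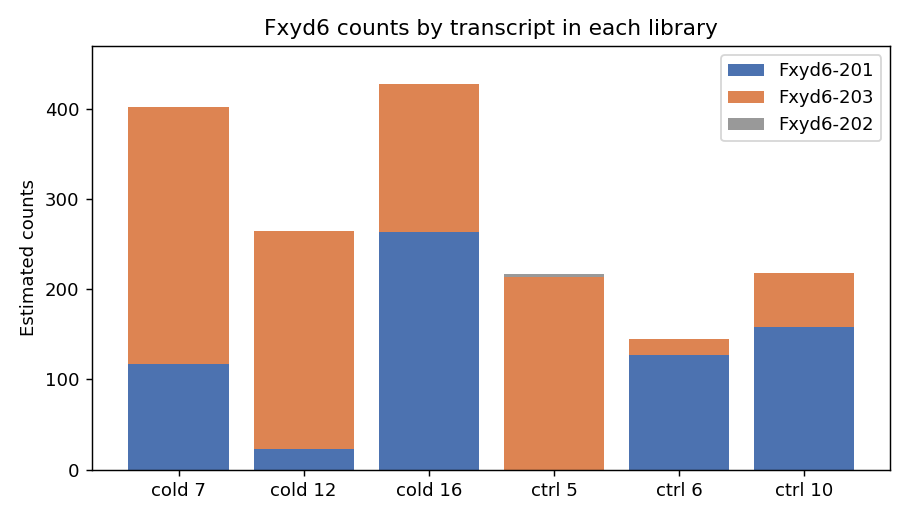
Estimated counts of Fxyd6 in each library (vertical axis), stacked by transcript, with the cold libraries left of the ctrl libraries. The division between Fxyd6-201 and Fxyd6-203 varies from library to library in both groups, and Fxyd6-201 is absent from the estimate in ctrl 5.

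As a group, the 7 genes had a median log2 fold change of 0.21, with 5 of 7 above 0, beside -0.01 over all 17852 genes tested. All 7 passed the filter on low counts in all 6 libraries. None of the 7 was past an adjusted p of 0.05 by edgeR's quasi-likelihood test, where 2.89% of all genes were, and 3 (Atp1b1, Atp1b3 and Fxyd6) had an unadjusted p under 0.05, where 17.6% of all genes did. By DESeq2, 1 of them (Atp1b1) was past the adjusted threshold, where 7.51% of genes were. By edgeR with libraries left out, Atp1b1 alone of the 7 was past it without cold 7 (5.91% of all genes), without ctrl 5 (3.75%) and without both (6.78%). Without cold 12, cold 16, ctrl 6 or ctrl 10 it was not past it, settings under which at most 3 genes of all passed. Cold libraries all lay above ctrl libraries in 2 of the 7 (Atp1b1 and Atp1b3), against 12.7% of all genes, and all below in 0, against 11.0%. Since these values were in view when the genes were chosen, nothing is read from the counts.

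**Figure D5:**
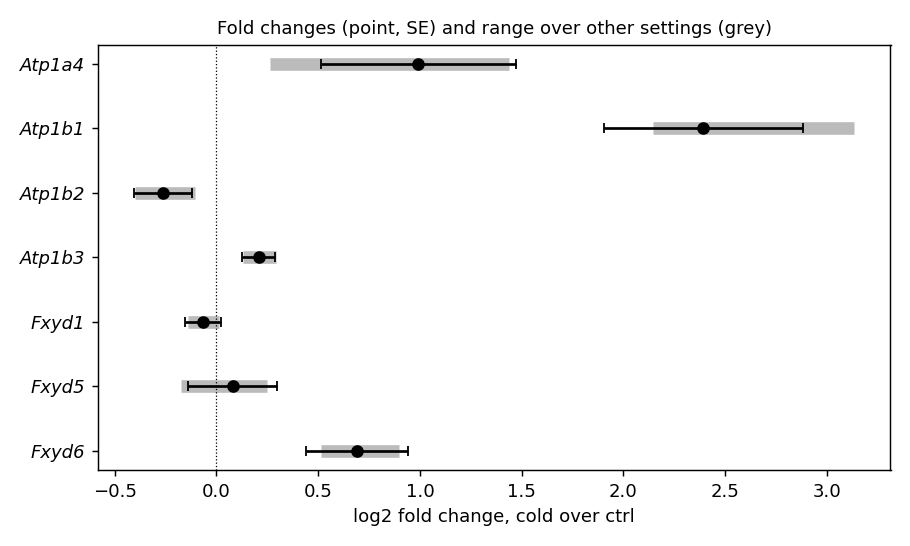
Log2 fold change of cold over ctrl for each of the 7 genes (horizontal axis), with its SE, and in grey the range over 11 other settings of the processing, among them each library left out. Atp1b1 ranges from 2.15 to 3.13 and stands apart from the rest, while the grey ranges of Fxyd1 and Fxyd5 cross 0.

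Other genes of the pump and of sodium transport were read from the same fit, in lists chosen with earlier results of these data known. The kidney gamma subunit gene Fxyd2 had 8.62, 14.8 and 12.1 CPM in cold 7, cold 12 and cold 16, against 7.27, 6.44 and 6.83 CPM in ctrl 5, ctrl 6 and ctrl 10. The groups did not overlap, but Fxyd2 was not past the threshold by edgeR's quasi-likelihood test (log2 fold change 0.79, SE 0.20, adjusted p = 0.0745), while DESeq2 called it (adjusted p = 0.0105). Among 12 genes of epithelial sodium, chloride and water transport 8 were tested, all with positive values (median log2 fold change 0.85), and by edgeR 1 rose, where 2.32% of all genes did. DESeq2 called 3 of the 8, where it called 7.51% of all genes, and leaving out a library moved the edgeR count between 0 and 3. The gene that rose was the chloride channel gene Cftr, at 2.49, 4.88 and 5.20 CPM in cold 7, cold 12 and cold 16, against 1.40, 0.447 and 0.565 CPM in ctrl 5, ctrl 6 and ctrl 10 (log2 fold change 2.36, SE 0.47, adjusted p = 0.0450 by edgeR). The epithelial sodium channel gene Scnn1a had 8.97, 27.3 and 26.4 CPM in cold and 4.50, 1.88 and 3.13 CPM in ctrl, with a log2 fold change of 2.71 and an adjusted p of 0.0632 by edgeR and 0.00017 by DESeq2. The sodium-potassium-chloride cotransporter gene Slc12a2 stood at 0.73 (adjusted p = 0.0700 by edgeR and 0.000559 by DESeq2) and the sodium-proton exchanger gene Slc9a3 at 3.59 (adjusted p = 0.213 by edgeR). Among 9 regulators of the pump and of sodium channels, all tested, 2 rose and none fell (median 0.06), where 2.32% of all genes rose and 0.566% fell. They were the kinase gene Wnk4 with 8.49, 13.0 and 14.1 CPM in cold and 5.62, 6.26 and 4.47 CPM in ctrl (adjusted p = 0.0399 by edgeR), and the membrane scaffold gene Ank3 with 6.30, 16.5 and 13.1 CPM in cold and 3.68, 2.68 and 2.10 CPM in ctrl (adjusted p = 0.0421). With an offset for transcript length the log2 fold change of Wnk4 was 0.61 (adjusted p = 0.332), and that of Ank3 1.74 (adjusted p = 0.0503). Ank3 too had cold 7 as lowest cold library and ctrl 5 as highest control. The related proton pump genes Atp12a, Atp4a and Atp4b were too low to test, Atp12a being at 0 counts in all libraries. The calls of Cftr, Wnk4 and Ank3 were each lost when cold 12, cold 16, ctrl 6 or ctrl 10 was left out. Wnk4 was lost without ctrl 5 too (adjusted p = 0.0700), and Ank3 without the filter on low counts (adjusted p = 0.0975).

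Genes whose course over the 6 libraries was most like that of each member were sought in the 11106 other genes with an assigned symbol that averaged 5 CPM or more, by the root mean square difference of centred log2 CPM. For Atp1b1, whose own SD on that scale was 1.31, they were Stard10, a lipid transfer protein gene (difference 0.11), and Espn, the actin bundler of microvilli (0.13). Stard10 had 23.0, 47.8 and 46.0 CPM in cold 7, cold 12 and cold 16, against 9.62, 4.78 and 6.11 CPM in ctrl 5, ctrl 6 and ctrl 10. For Atp1a4 (own SD 0.71) they were Ropn1l, a gene of the sperm tail sheath (0.30), and Phf7, a chromatin reader of male germ cells (0.36). Ropn1l had 11.2, 4.76 and 3.11 CPM in cold and 3.72, 4.60 and 3.49 CPM in ctrl, with cold 7 alone at the top as in Atp1a4. The remaining pairs were Slc2a8 and Rpusd1 for Atp1b2 (0.05 and 0.06), Qsox1 and Alg3 for Atp1b3 (0.03 and 0.03), Hnrnph3 and Nme3 for Fxyd1 (0.03 and 0.03), Stmn2 and Lhfp for Fxyd5 (0.06 and 0.07), and Nrxn2 and Mmrn1 for Fxyd6 (0.15 and 0.16). All these values share the same 6 libraries and are descriptions over 6 points.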

How the data were processed

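Per the labels' protocols, frozen eWAT was homogenised, RNA was purified on spin columns and directional libraries were read as pairs of 50 nt. Salmon, cutadapt and bcl2fastq and the build GRCm38 are named, per the submitters' processing notes. The sources used here give neither versions nor a strand setting. The authors deposited, per library, estimated counts and TPM for 140658 transcripts, per the file headers. Reads shared between transcripts are divided by Salmon's model, which bears on transcript shares more than on gene sums.

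Here 140137 identifiers were joined to GENCODE M21 on GRCm38 (139921 with their version). The other 521, with 0.124 to 0.394% of counts, were left out. Counts were summed per gene and rounded. Genes passing filterByExpr (minimum count 10, minimum total 15) were scaled by TMM and tested in edgeR 4.0.16 (R 4.3.3) with glmQLFit, robust, and glmQLFTest, two-sided, with Benjamini-Hochberg adjustment at 0.05. Standard errors came from the quasi-likelihood F. TPM was used for levels only. DESeq2 1.42.0, RLE factors, no filter, a length offset and left-out libraries were alternatives. An exact permutation test of 3 against 3 cannot go below p = 0.10 and was not used. No pair of libraries in a group was a duplicate (chi-square over degrees of freedom 11.9 to 33.0). Tested on simulated data, the fit recovered most large changes and fewer small ones, and a larger share of its calls was false than the nominal threshold allows. Named genes were the 7 members, Epcam, called or lowest-p genes of the pathway lists and the 2 nearest genes per member. Epididymis, seminal vesicle and germ cell genes were named to show libraries that stand apart. Members and lists were chosen with earlier results of these data known. Some genes of the lists are not reported here.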

Additional observations from a re-analysis of the deposited data

How the results depend on the processing

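Genes called over the whole table numbered 516, 526 with RLE factors and 411 with the length offset, but 924 with no low-count filter, 1340 by DESeq2 and 1230 without both ctrl 5 and cold 7. With 1 library left out they ran from 0 to 1090 by edgeR: 1090 without cold 7, 695 without ctrl 5, 3 without cold 16, and 0 without cold 12, ctrl 6 or ctrl 10 (2546, 3071 and 2835 genes at an unadjusted p under 0.05). The cause was not tested. Of 77 alternative fold changes of the 7 genes, 75 moved by less than the spread between replicates. The exceptions, both without ctrl 5 and cold 7, were Atp1b1 at 3.13 and Atp1a4 at 0.26. Atp1b1, Atp1b3, Atp1a4 and Fxyd6 stayed positive and Atp1b2 negative in all 11 alternatives, while Fxyd1 and Fxyd5, close to 0, took either sign. RLE scaling moved the median over all genes by 0.00708 (log2). By CPM in place of TPM, 2 of the 7 genes exchanged positions in ctrl. Low counts limit Atp1a4 (17 to 94) and Epcam in ctrl. No paired analysis was possible because the mouse numbers differ between the groups.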
